A study of Arabidopsis thaliana with 18 samples.

Results

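Suberin is the waxy polyester that root endodermal cells lay down on their walls to limit the movement of water and solutes. MYB transcription factors of the R2R3 type switch on the genes that make its monomers and carry them to the wall, and the stress hormone abscisic acid (ABA) is known to promote suberin deposition in the Arabidopsis endodermis. The 9 genes described here encode MYB factors linked to suberin: MYB41 (AT4G28110), MYB74 (AT4G05100), MYB102 (AT4G21440), MYB53 (AT5G65230), MYB92 (AT5G10280), MYB93 (AT1G34670), MYB9 (AT5G16770), MYB107 (AT3G02940) and MYB39 (AT4G17785). They were taken by locus code from a count table of 34218 features, and all 9 were found and tested among 20869 genes.

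The data are RNA-seq counts from root pieces of 1 cm of Arabidopsis thaliana, 3 libraries in each of 6 groups, each library from 50 to 100 pooled seedlings that were 5 days old. The groups were vnd123 (mutant in VND1, VND2 and VND3 together), vnd7 (mutant in VND7) and the wild type Col-0, each given 1 µM ABA or mock for 8 h. VND genes encode NAC transcription factors that drive the formation of xylem vessels, and the series asked which ABA-induced changes need them. The labels name no alleles. They do not say whether replicates were separate cultures either, so the p-values rest on a spread that may be only technical.

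Libraries held 38325491 to 58705802 counts. VND1, VND2 and VND3 had lower levels in vnd123 mock than in Col-0 mock (log2 change -4.69 ± 0.72, -1.99 ± 0.24 and -1.32 ± 0.14), and VND7 was lower in vnd7 mock (-2.56 ± 0.29). These loci still had reads in the lines named for them: 185 reads of VND3 over the vnd123 ABA libraries, for example. All 7 root marker genes had reads in each group, at a mean of 12.8 CPM or more (CPM are counts scaled to the same library size). Their summed level was 5740 to 7070 CPM in the ABA libraries, against 8760 to 10600 CPM in the mock libraries, most of it PYK10, a beta-glucosidase gene. The 5 shoot marker genes summed to 49.5 to 89.9 CPM in the ABA libraries, against 68.9 to 121 CPM in the mock libraries. With ABA, 2 of 4 tested shoot markers fell in each genotype and 0 rose, and 2 of 7 root markers fell while 1 or 2 rose. Of all tested genes 13.4% to 14.5% fell and 17.9% to 18.8% rose. The part of these markers in the MYB values was not tested. All 11 endodermis and Casparian strip markers had reads in each group and summed to 886 to 1200 CPM. Because these are bulk root pieces, fewer cells of a type and less RNA per cell cannot be told apart.

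ABA raised 8 of the 9 MYB genes in every genotype, and MYB39 was the exception. The question of this comparison was which genes respond to ABA in each line. In vnd123, 8 members rose and 0 fell, where 18.6% of all tested genes rose and 13.8% fell. In vnd7, 8 rose and 0 fell, where 18.8% of tested genes rose and 14.5% fell. In Col-0, 8 rose and 0 fell, where 17.9% of tested genes rose and 13.4% fell. The median log2 change of the 9 was 1.29 in vnd123, 1.03 in vnd7 and 1.16 in Col-0, against a median of 0.01, 0.01 and 0.00 over all tested genes. The 8 genes that rose had all 9 ABA libraries above all 9 mock libraries, a pattern that 12.1% of tested genes showed. Calls are from edgeR's quasi-likelihood test with Benjamini-Hochberg adjusted p under 0.05 over all tested genes, and changes are log2 fold changes ± SE of ABA over mock. With library sizes left unscaled, 3085 genes rose and 3838 fell in vnd123, where scaling gave 3872 and 2885. In vnd7 the unscaled counts were 3053 and 4449, where scaling gave 3916 and 3026, and in Col-0 3050 and 4075, where scaling gave 3743 and 2789.

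**Figure D1:**
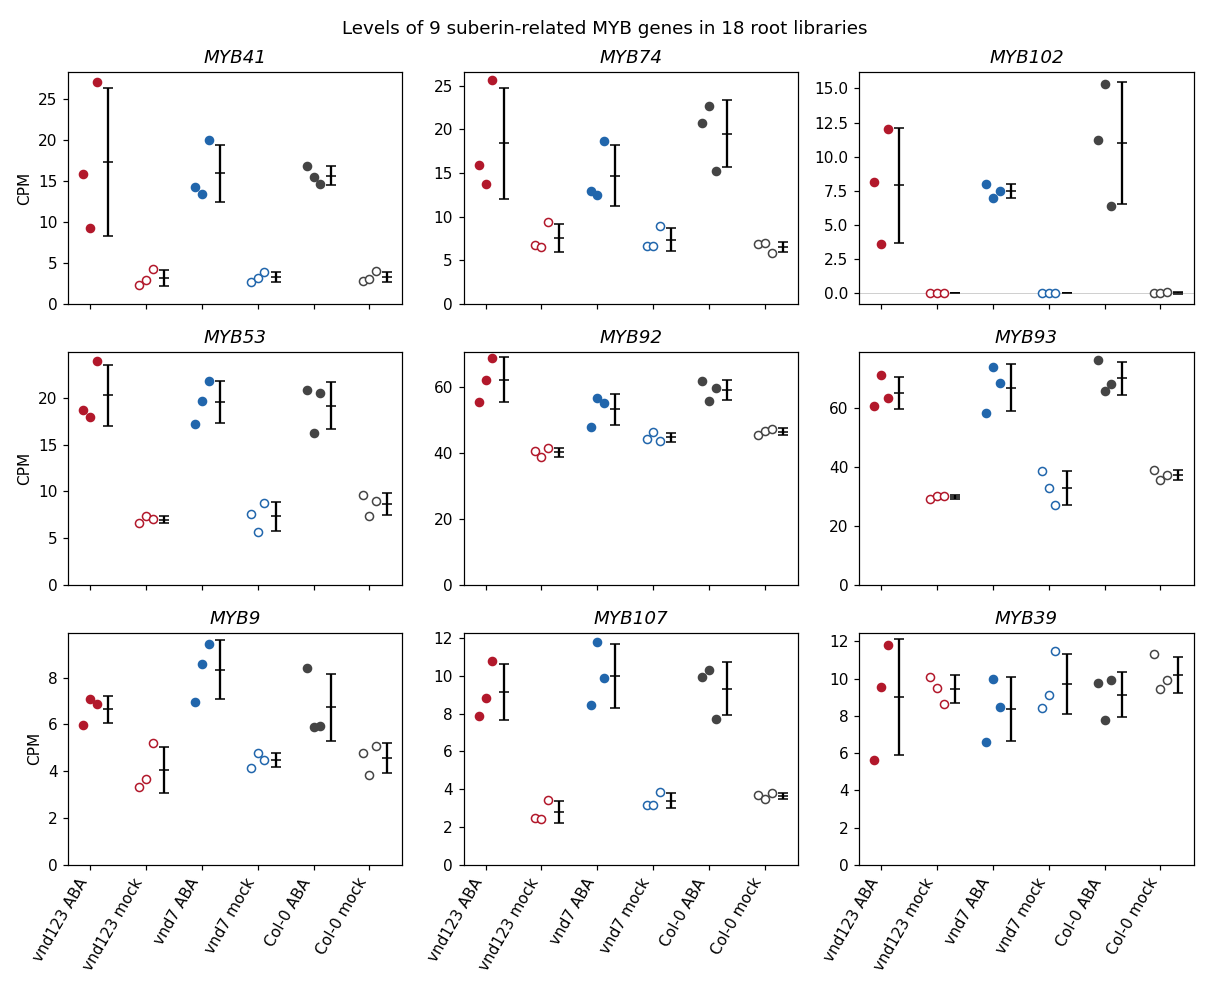
Level of each MYB gene (y axis, CPM on scaled library sizes, each panel with its own range) in the 6 groups (x axis). Filled circles are ABA libraries and open circles are mock libraries, and black bars are the mean ± SD of 3 libraries. In every panel but that of MYB39, which spans 5.64 to 11.8 CPM with ABA and 8.44 to 11.5 CPM in mock, the ABA circles lie above the mock circles.

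MYB41 can drive ectopic suberin formation when it is overproduced, and it is known as a gene induced by osmotic stress. Its level was 15.8, 9.20 and 27.0 CPM in vnd123 ABA, against 2.30, 2.95 and 4.30 CPM in vnd123 mock. In vnd7 it was 14.3, 13.4 and 19.9 CPM with ABA, against 2.71, 3.13 and 3.95 CPM in mock. The Col-0 libraries held 16.8, 15.5 and 14.6 CPM with ABA, against 2.83, 3.02 and 4.01 CPM in mock. The lowest ABA library, vnd123 ABA 2, was still above the highest mock library. The log2 changes were 2.44 ± 0.30 in vnd123 (adjusted p = 2.17e-06), 2.28 ± 0.29 in vnd7 (adjusted p = 3.93e-06) and 2.24 ± 0.30 in Col-0 (adjusted p = 5.93e-06).

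MYB74 is a stress-induced relative of MYB41. It was at 15.9, 13.7 and 25.6 CPM in vnd123 ABA, against 6.74, 6.5 and 9.38 CPM in vnd123 mock. With ABA the vnd7 libraries had 12.9, 12.5 and 18.7 CPM, against 6.64, 6.64 and 8.89 CPM in mock. Col-0 gave 20.7, 22.7 and 15.2 CPM with ABA, against 6.87, 6.96 and 5.90 CPM in mock. No ABA library overlapped the mock libraries. MYB74 rose by 1.29 ± 0.22 in vnd123 (adjusted p = 0.000121), 0.99 ± 0.22 in vnd7 (adjusted p = 0.00137) and 1.57 ± 0.22 in Col-0 (adjusted p = 1.4e-05) on the log2 scale.

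MYB102, known from responses to osmotic stress and wounding, was nearly silent without ABA. The vnd123 ABA libraries had 439, 140 and 465 reads (8.12, 3.61 and 12 CPM), against 0 reads in each vnd123 mock library. In vnd7 there were 452, 335 and 350 reads with ABA (8.04, 7.01 and 7.48 CPM), against 0 reads in each mock library. Col-0 had 442, 565 and 292 reads with ABA (11.2, 15.3 and 6.41 CPM), against 1, 0 and 6 reads in mock. Against a floor of 3 counts over the mock group, MYB102 was at least 422-fold higher in vnd123 ABA and at least 418-fold higher in vnd7 ABA. These bounds cover counting error only. In Col-0 the log2 change was 7.78 ± 0.65 (adjusted p = 1.32e-07). It was 9.70 (adjusted p = 1.23e-06) without Col-0 mock 3, the library that held 6 of the 7 mock reads.

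MYB53, MYB92 and MYB93 are close relatives that promote endodermal suberin in Arabidopsis roots, and MYB93 is also known as a repressor of lateral root development. MYB53 was at 18.7, 18 and 24 CPM in vnd123 ABA, against 6.57, 7.36 and 6.98 CPM in vnd123 mock. In vnd7 it was at 17.2, 19.7 and 21.8 CPM with ABA, against 7.52, 5.68 and 8.74 CPM in mock. Its Col-0 levels were 20.9, 16.3 and 20.5 CPM with ABA, against 9.59, 7.37 and 8.92 CPM in mock. The lowest ABA library of MYB53 was above every mock library. The log2 changes were 1.54 ± 0.15 in vnd123 (adjusted p = 1.56e-07), 1.42 ± 0.15 in vnd7 (adjusted p = 3.48e-07) and 1.16 ± 0.15 in Col-0 (adjusted p = 5.12e-06).

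MYB93 was at 60.8, 71.2 and 63.4 CPM in vnd123 ABA, against 28.9, 30.2 and 30.0 CPM in vnd123 mock. In vnd7 it had 58.3, 74.0 and 68.4 CPM with ABA, against 38.7, 32.7 and 26.9 CPM in mock. Col-0 had 76.4, 65.6 and 68.0 CPM with ABA, against 39.0, 35.6 and 37.3 CPM in mock. The ABA and mock libraries of MYB93 did not overlap in any genotype. It rose by 1.13 ± 0.11 in vnd123 (adjusted p = 1.11e-07), 1.03 ± 0.11 in vnd7 (adjusted p = 3.17e-07) and 0.91 ± 0.11 in Col-0 (adjusted p = 1.72e-06) on the log2 scale.

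MYB92, which is also known to activate genes of fatty acid synthesis, had the smallest change among the 8 genes that rose. It was at 55.4, 62.2 and 68.9 CPM in vnd123 ABA, against 40.5, 38.6 and 41.3 CPM in vnd123 mock. The vnd7 libraries had 47.9, 56.6 and 55.1 CPM with ABA, against 44.3, 46.2 and 43.6 CPM in mock. Col-0 had 61.9, 55.8 and 59.6 CPM with ABA, against 45.3, 46.6 and 47.3 CPM in mock. In vnd7 the lowest ABA library was just above the highest mock library. MYB92 rose by 0.63 ± 0.08 in vnd123 (adjusted p = 3.15e-06), 0.25 ± 0.08 in vnd7 (adjusted p = 0.0189) and 0.35 ± 0.08 in Col-0 (adjusted p = 0.00179) on the log2 scale. The vnd7 call ended with unscaled library sizes (0.16, adjusted p = 0.123) and in a fit of the vnd7 libraries alone (0.22, adjusted p = 0.0594). It also ended without vnd7 ABA 2 (0.18, adjusted p = 0.135), vnd7 ABA 3 (0.22, adjusted p = 0.0696) or vnd7 mock 3 (0.21, adjusted p = 0.0908).

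MYB107 and MYB9 are paralogs that promote suberin in the seed coat. MYB107 was at 7.86, 8.81 and 10.8 CPM in vnd123 ABA, against 2.46, 2.45 and 3.45 CPM in vnd123 mock. Its vnd7 levels were 8.44, 11.8 and 9.87 CPM with ABA, against 3.15, 3.17 and 3.84 CPM in mock. In Col-0 they were 9.96, 10.3 and 7.72 CPM with ABA, against 3.68, 3.47 and 3.78 CPM in mock. Every ABA library of MYB107 was above every mock library. The log2 changes were 1.71 ± 0.17 in vnd123 (adjusted p = 1.55e-07), 1.57 ± 0.17 in vnd7 (adjusted p = 3.22e-07) and 1.35 ± 0.17 in Col-0 (adjusted p = 2.58e-06).

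MYB9 had the smaller fitted change of the pair, a difference between genes that was not tested. MYB9 was at 5.99, 7.08 and 6.87 CPM in vnd123 ABA, against 3.33, 3.65 and 5.19 CPM in vnd123 mock. With ABA the vnd7 libraries had 6.98, 8.60 and 9.44 CPM, against 4.16, 4.77 and 4.47 CPM in mock. Col-0 had 8.39, 5.89 and 5.92 CPM with ABA, against 4.8, 3.84 and 5.06 CPM in mock. The ABA libraries were again all above the mock libraries, by narrow margins in vnd123 and Col-0. MYB9 rose by 0.71 ± 0.18 in vnd123 (adjusted p = 0.00413), 0.90 ± 0.17 in vnd7 (adjusted p = 0.000409) and 0.56 ± 0.18 in Col-0 (adjusted p = 0.0203) on the log2 scale. In Col-0 the change missed the threshold when library ABA 1 was left out (0.35, adjusted p = 0.167), and when mock 2 was (0.45, adjusted p = 0.105). MYB9 overlaps DOT2 (AT5G16780) in the reference annotation, which had 56165 reads over all libraries where MYB9 had 5005, and without strand their reads cannot be told apart. DOT2 itself was at -0.09 ± 0.11 in vnd123, 0.05 ± 0.11 in vnd7 and -0.13 ± 0.11 in Col-0, and passed in none (adjusted p = 0.568, 0.773 and 0.425). MYB92 and MYB53 also overlap another locus, AT5G10278 and AT5G65225, which had 6558 and 245 reads in all and passed in no ABA comparison.

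MYB39, also called SUBERMAN, promotes suberin formation in the endodermis and was the member that did not change detectably. It was at 5.64, 9.56 and 11.8 CPM in vnd123 ABA, against 10.1, 9.52 and 8.66 CPM in vnd123 mock. The vnd7 libraries had 6.59, 10 and 8.48 CPM with ABA, against 8.44, 9.14 and 11.5 CPM in mock. Col-0 had 9.75, 7.78 and 9.92 CPM with ABA, against 11.3, 9.46 and 9.93 CPM in mock. The ABA and mock libraries overlapped in every genotype. The log2 change was -0.08 ± 0.20 in vnd123 (95% interval -0.50 to 0.35, adjusted p = 0.811) and -0.22 ± 0.20 in vnd7 (-0.63 to 0.20, adjusted p = 0.454). In Col-0 it was -0.16 ± 0.20 (-0.58 to 0.26, adjusted p = 0.601). A rise of MYB39 beyond the upper ends lay outside these 95% intervals.

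**Figure D2:**
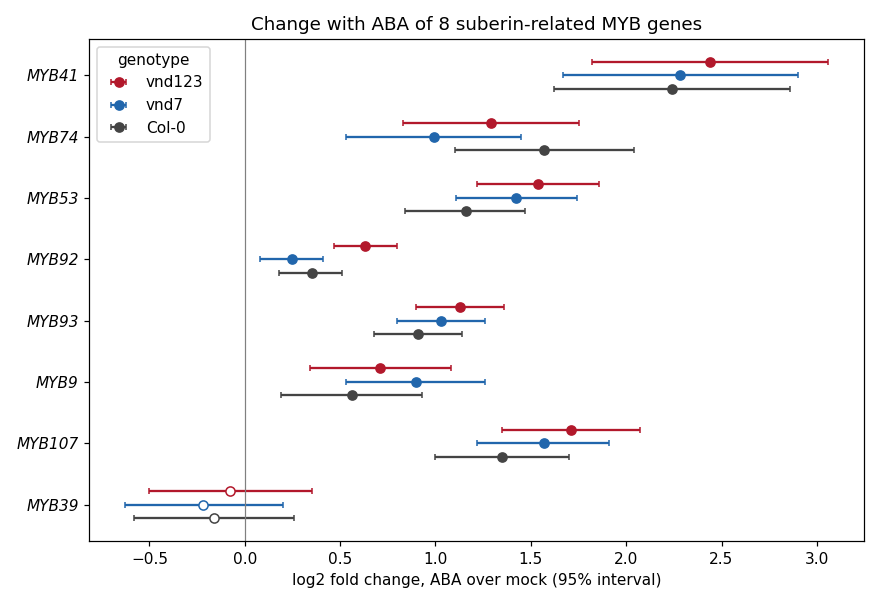
Log2 fold change of ABA over mock (x axis) with its 95% interval from the fit, for vnd123, vnd7 and Col-0 (top to bottom within each gene), filled where adjusted p was under 0.05. MYB102 is left out because 2 of its mock groups held 0 reads, and only the 3 intervals of MYB39 cross 0.

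No difference between a mutant and Col-0 passed the same test for any of the 9 genes, in ABA or in mock. This comparison asked whether the levels depend on the VND genes. In ABA, 0 of 9 members passed between vnd123 and Col-0, where 1.09% of all tested genes passed, and 0 of 9 between vnd7 and Col-0, where 0.163% passed. In mock, 0 of 9 passed between vnd123 and Col-0 (0.609% of tested genes) and 0 of 9 between vnd7 and Col-0 (0.0671%). At an unadjusted p under 0.05 there were 0 members in ABA for either mutant, where 2143 of 20869 tested genes passed for vnd123 and 2665 for vnd7. In mock there were 3 for vnd123, where 1352 tested genes passed, and 0 for vnd7, where 1017 passed. The median log2 difference of the 9 in mock was -0.21 for vnd123 and -0.08 for vnd7, against -0.01 and 0 over all tested genes. In ABA it was -0.03 and -0.07, against 0 and -0.01. DESeq2 called 0 in each of these comparisons.

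In ABA the intervals were narrowest for MYB92, MYB93 and MYB53. The log2 difference of vnd123 from Col-0 was 0.07 (95% interval -0.09 to 0.24) for MYB92, -0.10 (-0.33 to 0.12) for MYB93 and 0.07 (-0.23 to 0.38) for MYB53. That of MYB41 was 0.15 (-0.42 to 0.71), and that of MYB102 was -0.47 (-1.23 to 0.30), with overlapping libraries in each case. In vnd7 the differences from Col-0 in ABA ran from -0.54 (-1.30 to 0.22) for MYB102 and -0.41 (-0.86 to 0.03) for MYB74 up to 0.31 (-0.05 to 0.67) for MYB9. A p that misses the threshold does not show that the lines were alike, and in at least 1 mutant the intervals of MYB41, MYB74, MYB102 and MYB9 still hold differences of over 1.5-fold.

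In mock, the members with an unadjusted p under 0.05 were MYB93, MYB92 and MYB107, all lower in vnd123. MYB93 averaged 29.7 ± 0.691 CPM in vnd123 mock and 37.3 ± 1.72 CPM in Col-0 mock (SD, n = 3), a log2 difference of -0.33 ± 0.11 (edgeR adjusted p = 0.383). MYB92 averaged 40.1 ± 1.40 CPM in vnd123 mock and 46.4 ± 1.00 CPM in Col-0 mock, a difference of -0.21 ± 0.08 (edgeR adjusted p = 0.533). MYB107 averaged 2.79 ± 0.576 CPM in vnd123 mock and 3.65 ± 0.161 CPM in Col-0 mock, a difference of -0.39 ± 0.17 (edgeR adjusted p = 0.711). For these genes and MYB53 the 3 vnd123 mock libraries were all below the 3 Col-0 mock libraries, a pattern that 7.44% of tested genes showed. None of these differences passed the test over all genes. Relative to Col-0, the log2 difference of the shoot marker RBCS1A in vnd123 was -1.28 in ABA (adjusted p = 0.012) and -1.47 in mock (adjusted p = 0.00305), the only 1 of 4 tested shoot markers that passed. The 5 shoot markers summed to 72.9 to 99 CPM in vnd123 mock, against 91.8 to 121 CPM in Col-0 mock, and their part in the MYB values was not tested.

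No difference in the ABA response between a mutant and Col-0 passed the test for any member. Of the 9 interaction terms, 0 passed for vnd123 and 0 for vnd7. Over all genes edgeR called 0 in both, a share of 0%, with 748 and 835 genes at an unadjusted p under 0.05, and DESeq2 called 6 and 0. MYB92 was the only member at an unadjusted p under 0.05, with an ABA response larger in vnd123 than in Col-0 by 0.28 ± 0.11 on the log2 scale (edgeR adjusted p = 1). That term is mostly the lower mock level given above, since vnd123 differed from Col-0 by 0.07 in ABA and -0.21 in mock. For MYB53, MYB93 and MYB107 too, vnd123 differed more in mock (-0.31, -0.33 and -0.39) than in ABA (0.07, -0.10 and -0.03). The interaction term for MYB74 was -0.28 (95% interval -0.93 to 0.36) in vnd123 and -0.58 (-1.23 to 0.07) in vnd7. For MYB93 it was 0.22 (-0.10 to 0.54) and 0.12 (-0.20 to 0.44), and for MYB41 0.20 (-0.66 to 1.06) and 0.04 (-0.82 to 0.90). That of MYB53 was 0.38 (-0.07 to 0.83) and 0.27 (-0.18 to 0.71), and that of MYB107 0.36 (-0.14 to 0.85) and 0.22 (-0.27 to 0.71). MYB9 had 0.15 (-0.37 to 0.67) and 0.34 (-0.18 to 0.86). The median of the 9 terms was 0.22 in vnd123 and 0.12 in vnd7, against 0 over all tested genes in both. Terms that miss the threshold do not show that the responses were alike. MYB102 has no usable interaction term, since both mutants had 0 reads of it in mock.

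For 8 genes the groups ranked by treatment. In each of those, the 3 ABA groups ranked above the 3 mock groups, and the lowest ABA group had no library within the range of the highest mock group. Neighbouring groups of the same treatment overlapped in all 8 genes, with 1 exception: for MYB92, vnd123 mock (40.1 ± 1.40 CPM) lay below vnd7 mock (44.7 ± 1.35 CPM) with no overlap. The group of highest mean was vnd123 ABA for MYB41, MYB53 and MYB92, vnd7 ABA for MYB9 and MYB107, and Col-0 ABA for MYB93, MYB74 and MYB102. For MYB39 the 3 ABA groups, with means of 8.36 to 9.15 CPM, ranked below the 3 mock groups, with means of 9.44 to 10.2 CPM, and every neighbouring pair overlapped.

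Replicates of vnd123 ABA spread widely for the stress-induced genes MYB41, MYB74 and MYB102 and for MYB39. Their coefficients of variation there were 51.9%, 34.3%, 53.1% and 34.7%, against 8.32% for MYB93 and 10.9% for MYB92 in the same libraries. The library vnd123 ABA 2 was the lowest of its group for all of MYB41, MYB74 and MYB102, and vnd123 ABA 3 the highest. This order was not limited to these genes. In log2 CPM, vnd123 ABA 2 deviated from its group mean by -0.78 for MYB41, -0.37 for MYB74 and -0.96 for MYB102, and vnd123 ABA 3 by 0.77, 0.53 and 0.76. The library vnd123 ABA 3 was also the highest for MYB53 (0.26), MYB92 (0.15), MYB107 (0.25) and MYB39 (0.46), and vnd123 ABA 2 the lowest for MYB53 (-0.16). MYB93 and MYB9 were highest in vnd123 ABA 2 (0.13 and 0.09), and MYB39 was lowest in vnd123 ABA 1, at -0.61. The median deviation of 20 suberin genes in these libraries was -0.12, 0.05 and 0.03, and that of all tested genes was 0.01, 0.00 and 0.01. The spread was not limited to vnd123 ABA. MYB102 was at -0.68 in Col-0 ABA 3 and 0.56 in Col-0 ABA 2, a coefficient of variation of 40.5%. In vnd123 mock, vnd7 ABA and vnd7 mock, library 3 was the highest of its group for both MYB41 and MYB74, by 0.28 to 0.48, while Col-0 ABA 3 was the lowest of its group for both. Without vnd123 ABA 2 or any other single library, 8 members still rose in vnd123.

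**Figure D3:**
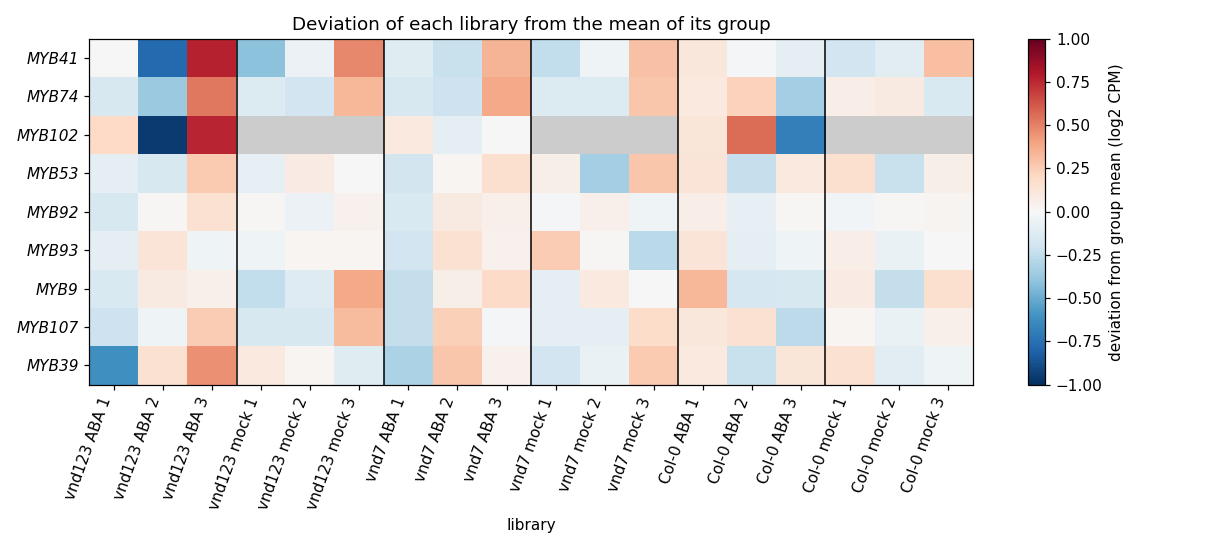
Deviation of each library (x axis, 3 per group) from the mean of its group in log2 CPM (colour scale, blue below and red above the mean) for the 9 genes. The mock libraries of MYB102 are grey because they held 0 to 6 reads. The deepest colours are in the MYB41 and MYB102 rows of vnd123 ABA 2 and 3 (-0.96 and 0.76 for MYB102). Next are MYB102 in Col-0 ABA 3 (-0.68), MYB39 in vnd123 ABA 1 (-0.61) and MYB102 in Col-0 ABA 2 (0.56).

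Over the 18 libraries, the levels of the 8 genes that rose followed each other, with Pearson's r of log2 CPM between 0.78 and 0.97 for every pair. The points share the split between ABA and mock, which sets most of this likeness, and no p is given. MYB39 correlated with the other members at -0.32 to 0.00. Deviations from the group means, which leave out treatment and genotype, had r = 0.78 for MYB41 with MYB74, 0.63 for MYB41 with MYB102 and -0.31 for MYB41 with MYB93. MYB39 and MYB92 had r = 0.76 on that measure, and MYB9 and its paralog MYB107 0.64. MYB107 with MYB74 had 0.66, and MYB74 with MYB102 only 0.39. These are descriptions in which each library enters every gene with the same depth, and the mock libraries of MYB102 hold almost no reads.

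Among 17247 genes with a mean log2 CPM above 1, those most like MYB41 over the 18 libraries were HSFA6B (r = 0.993), a heat shock factor gene, and the kinase genes MAPKKK17 (0.993) and MAPKKK18 (0.989). MYB102 was most like AFP3 (0.996), which encodes an ABI5-binding protein, AT1G27200 (0.993) and the ABA phosphatase gene ABI1 (0.993). MYB74 was nearest to ZFP5 (0.960), MAPKKK18 (0.959) and NF-YB2 (0.958). The list for MYB107 held HCD1 (0.981), the suberin transporter gene ABCG6 (0.980) and PKp3 (0.979). That for MYB93 held AT2G03200 (0.990), the suberin list gene AT2G23540 (0.989) and AT4G20390 (0.986). The nearest genes of MYB53 were AT5G42050 (0.978), AT5G07475 (0.977) and GXMT1 (0.976), and those of MYB9 were AT1G75400 (0.930), VSR3 (0.928) and PUB45 (0.927). MYB92 had CYCD5;1 (0.936), AT1G22470 (0.931) and HMGB3 (0.927). MYB39 had no neighbour above 0.803, the value for IAA13, followed by AT1G05720 (0.802) and CHL-CPN10 (0.771). Each neighbour was picked as the highest of 17247 genes, over points that share the split between ABA and mock. For MYB102, with almost no mock reads, r is largely that split. Shared regulation was not tested.

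The genes of suberin synthesis and export, which these factors are known to activate, rose with ABA alongside 8 of the MYB genes. Of 21 listed genes 20 were tested, and ABCG2, with 0 to 10 reads per library, was not. In vnd123 20 rose (median log2 change 1.00), in vnd7 19 rose (1.05) and in Col-0 20 rose (0.93), and 0 fell in any genotype. Of all tested genes 18.6%, 18.8% and 17.9% rose, with medians of 0.01, 0.01 and 0.00. The exception in vnd7 was FACT, at 0.58 ± 0.32 (adjusted p = 0.179). The 4 genes with the smallest p were ABCG6, GPAT5, FAR5 and AT2G23540 in vnd123, and ABCG6, GPAT5, FAR5 and ASFT in vnd7 and in Col-0. GPAT5, an acyltransferase gene of suberin monomer synthesis, was at 115, 121 and 122 CPM in vnd123 ABA, against 37.6, 41.0 and 39.6 CPM in vnd123 mock. FAR5, which encodes a reductase that makes the fatty alcohols of suberin, was at 220, 246 and 246 CPM in vnd123 ABA, against 69.4, 84.2 and 87.2 CPM in vnd123 mock. In both, the ABA libraries lay far above the mock libraries. ASFT, the feruloyl transferase gene of suberin, averaged 481 ± 59.6 CPM in vnd7 ABA and 192 ± 7.68 CPM in vnd7 mock (SD, n = 3). In Col-0 it was at 448, 452 and 422 CPM with ABA, against 207, 186 and 208 CPM in mock. AT2G23540 averaged 575 ± 12.5 CPM in vnd123 ABA and 261 ± 9.50 CPM in vnd123 mock. The mutants differed from Col-0 in 0 of 20 suberin genes, in ABA and in mock, with edgeR. AT2G23540 averaged 261 ± 9.50 CPM in vnd123 mock and 339 ± 30.6 CPM in Col-0 mock, which missed the threshold in edgeR (log2 difference -0.38, adjusted p = 0.0691). It passed in DESeq2 (-0.37, adjusted p = 0.0143), and in edgeR in a fit of these groups alone (adjusted p = 0.0494), without Col-0 mock 2 (adjusted p = 0.0384) and without vnd7 mock 1 (adjusted p = 0.0223).

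**Figure D4:**
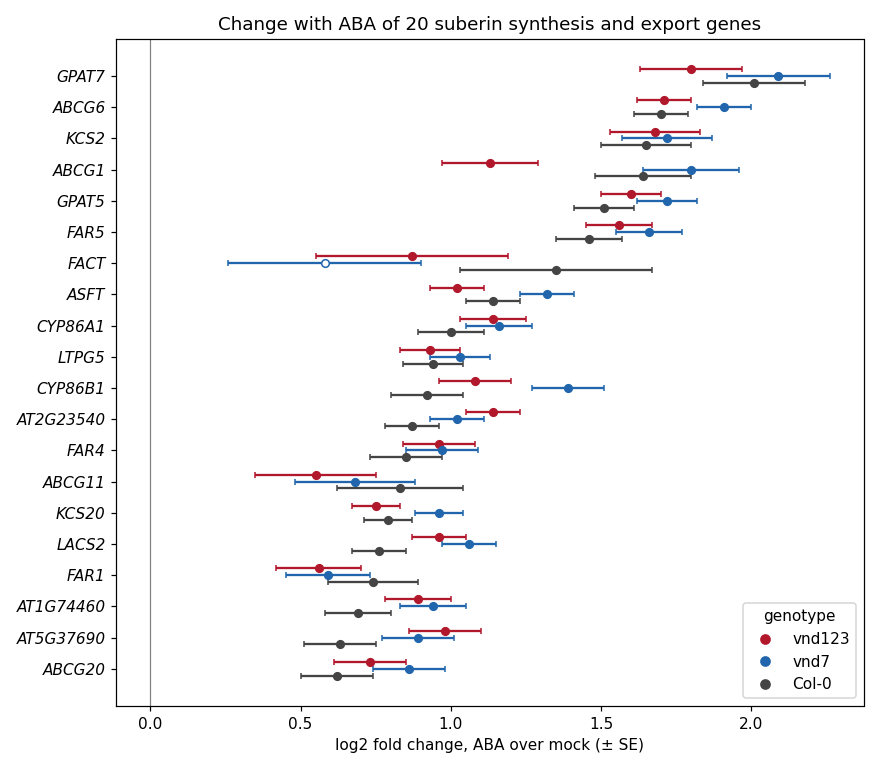
Log2 fold change of ABA over mock ± SE (x axis) of 20 genes of suberin synthesis and export, ordered by their value in Col-0, for vnd123, vnd7 and Col-0 (top to bottom within each gene). Filled points passed at adjusted p under 0.05, which only FACT in vnd7 (0.58) did not, and all points lie right of 0.

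Across the 18 libraries, the median r of a MYB gene with the 20 suberin genes was 0.96 for MYB107 and MYB102, 0.95 for MYB53 and MYB93, and 0.93 for MYB41. It was 0.87 for MYB9 and MYB74, 0.85 for MYB92 and -0.26 for MYB39, against medians of -0.03 to 0.02 over all genes compared. Here too the points share the split between ABA and mock, which sets most of the likeness. For deviations from the group means the median r was 0.46 for MYB107, 0.36 for MYB92, 0.33 for MYB53, MYB93 and MYB9, and 0.26 for MYB39. It was 0.21 for MYB102, 0.14 for MYB74 and 0.09 for MYB41. Single suberin genes ranged widely within each of these, from -0.22 to 0.85 for MYB107 and from -0.42 to 0.81 for MYB41. Over all genes compared, the median r of the deviations lay between -0.02 and 0.02.

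The endodermis is a root cell type that forms suberin. Of its 11 markers, 3 rose and 0 fell with ABA in vnd123 (27.3%, where 32.4% of all tested genes passed in either direction). In vnd7 2 rose and 1 fell (27.3%, of all genes 33.3%), and in Col-0 1 rose and 1 fell (18.2%, of all genes 31.3%), with median log2 changes of 0.18, 0.12 and 0.03. Those that passed in 1 genotype were CASP1 (0.31) and PER64 (0.24) in vnd123, SGN3 (0.49) and CASP4 (-0.36) in vnd7 and SCR (-0.21) in Col-0. CASP5, a membrane protein gene of the Casparian strip, was the one that rose in all, by 2.29 ± 0.14 in vnd123, 2.13 ± 0.14 in vnd7 and 1.99 ± 0.14 in Col-0 on the log2 scale. The summed level of the 11 markers was 1180 to 1200 CPM in vnd123 ABA, against 965 to 1110 CPM in vnd123 mock. In vnd7 it was 1020 to 1190 CPM with ABA, against 886 to 1090 CPM in mock, and in Col-0 1120 to 1170 CPM, against 944 to 1130 CPM. Much of the higher sums was CASP5. It averaged 111 CPM with ABA and 22.7 CPM in mock in vnd123, 101 and 23.0 CPM in vnd7, and 124 and 31.3 CPM in Col-0. The part of the endodermis markers in the MYB values was not tested.

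Other MYB genes offer a comparison within the gene family. Of 106 other genes that the reference table names MYB with a number, 72 were tested. They include WER, which is also among the root markers. In vnd123 30 rose and 8 fell, in vnd7 30 rose and 11 fell, and in Col-0 31 rose and 9 fell, with median log2 changes of 0.41, 0.38 and 0.53. The suberin-related members had medians of 1.29, 1.03 and 1.16 beside them. Of all tested genes 18.6%, 18.8% and 17.9% rose and 13.8%, 14.5% and 13.4% fell, with medians of 0.01, 0.01 and 0.00. Among other MYB genes with a mean log2 CPM above 1, the 3 largest rises in Col-0 were MYB305 at 3.86 ± 0.26, MYB96, a regulator of cuticular wax, at 2.71 ± 0.28, and MYB112 at 2.56 ± 0.18. The largest falls were MYB10 at -2.23 ± 0.24, MYB55 at -1.57 ± 0.12 and MYB28, a regulator of glucosinolate synthesis, at -1.11 ± 0.19. Among the genes below that level, MYB121 (AT3G30210), named after its values were seen, had 370, 168 and 239 reads in vnd123 ABA, against 1, 0 and 0 in vnd123 mock. In vnd7 it had 216, 131 and 134 reads with ABA, against 0, 1 and 0 in mock, and in Col-0 229, 153 and 185 reads with ABA, against 0 in each mock library. Like MYB102, it was nearly silent without ABA. Also below that level, MYB79 had 21, 27 and 6 reads in Col-0 ABA, against 0 in each Col-0 mock library, and MYB47 had 10, 8 and 4, against 1, 0 and 0. The Col-0 rises of MYB121 (10.83), MYB79 (7.49) and MYB47 (4.31) rest on these few mock reads. The members were not filtered on level. MYB41 at 2.24 ± 0.30 stood below the rises of MYB305, MYB96, MYB112 and these 3 genes, and above the rest of the members apart from MYB102.

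**Figure D5:**
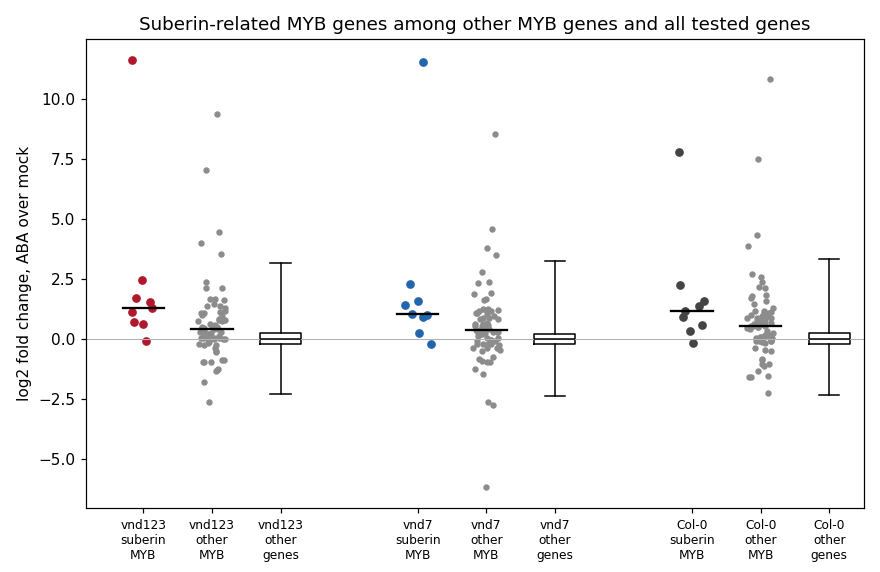
Log2 fold change of ABA over mock (y axis) of the 9 suberin-related MYB genes (coloured points), 72 other MYB genes (grey points) and all other tested genes (box, quartiles, with whiskers at the 1st and 99th percentiles) in vnd123, vnd7 and Col-0. Horizontal bars are medians, 1.29, 1.03 and 1.16 for the coloured points. The highest coloured point of each genotype is MYB102, whose fitted value in both mutants rests on 0 mock reads and is no bound, and the highest grey point, MYB121, rests on 0 or 1 mock reads.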

How the data were processed

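RNA-seq libraries of 18 samples were analysed, 3 in each of 6 groups of genotype and treatment taken from the sample titles. Per the labels' protocols, the kit was the NEBNext Ultra RNA kit, which, unlike its directional version, does not mark strand, with paired sequencing at a read length of 150. The submitters' processing notes name HISAT2 and HTSeq. The build, the annotation, tool versions and options were not given in the sources used here. All of the authors' deposited values are counts per gene, whole numbers without normalization. The table's 1385 features without a locus code took at most 0.00106% of a library. Of 32833 locus codes, 32548 matched the TAIR10.1 gene table, which was used for symbols and for which genes overlap.

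Counts were fitted in R 4.3.3 with edgeR 4.0.16: filterByExpr by group (20869 genes kept), TMM scaling, and 1 quasi-likelihood fit of the 6 group means to all 18 libraries, with contrasts and Benjamini-Hochberg adjustment over all tested genes at 0.05. The SE is the log2 change divided by the root of the F statistic. The common biological coefficient of variation was 0.106. CPM use TMM-scaled library sizes, and correlations use log2 CPM with a prior count of 2. Within every group, each pair of libraries differed beyond counting noise (chi-square per degree of freedom 8.87 to 30.6). In simulated counts for the ABA comparison of Col-0, changes of 1.5, 2 and 4 times were planted in 67, 67 and 66 genes. The test recovered 58.2%, 97% and 100% of them, with 5 unchanged genes called of 20677 fitted. In the real comparison 31.3% of all tested genes were called, a far larger share than was planted. The simulated recoveries therefore cannot be carried over to the real comparison. Alternatives were DESeq2 1.42.0, other scalings, no filter, a replicate block, fits of the compared groups alone and leaving out each library.

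The 9 members and the lists were chosen with earlier results of these data known. All 9 members were tested in every comparison. Other genes are named by rule: the 4 suberin genes of smallest p, markers outside the direction of their list, the 3 largest called changes each way in Col-0 among other MYB genes with mean log2 CPM above 1, and the 3 genes most correlated with each member. GPAT5 and FAR5 values in vnd123 were picked from these as examples. AT2G23540 in mock, MYB121, MYB79, MYB47 and single endodermis markers were named after values were seen. Levels were compared within genes only, because no gene length of the authors' annotation was used here. Protein and promoter sequences were not used here.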

Additional observations from a re-analysis of the deposited data

How the results depend on the processing

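Of 648 recomputed ABA changes of the members under 24 alternative settings, 641 kept their side of the threshold and 0 reversed a call. Among them, 1 uncalled value changed sign, MYB39 in vnd123 without vnd123 ABA 1 (0.18). The other 7 lost the threshold, all of them MYB92 in vnd7 or MYB9 in Col-0, with values beside the result. The number of members that rose was 8 in vnd123, and 7 to 8 in vnd7 and Col-0, when single libraries were left out. All 862 values between a mutant and Col-0 and all 432 interaction values stayed below the threshold, although 32 and 10 uncalled values changed sign. They include MYB102 in mock and in the interactions, where 0 mock reads in both mutants leave no usable value. MYB102 gave no value in mock between a mutant and Col-0 in fits of the compared groups alone.

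Counts over all genes between a mutant and Col-0 moved more. DESeq2 called 73 genes higher and 334 lower in vnd123 ABA (edgeR 30 and 197), 71 and 164 in vnd123 mock (26 and 101), 78 and 81 in vnd7 ABA (16 and 18), and 17 and 21 in vnd7 mock (10 and 4). It called 6 interactions lower for vnd123, and 1 suberin gene, AT2G23540, lower in vnd123 mock. With no filter 28 genes were lower in vnd7 ABA. Fits of the compared groups alone gave 15 higher in vnd123 ABA, 26 higher and 30 lower in vnd7 ABA, 1 interaction higher for vnd123 and 1 suberin gene lower in vnd123 mock. When 1 library was left out, genes called in vnd123 ABA ranged from 14 to 42 higher and 102 to 242 lower, and 16 to 31 were higher in vnd123 mock. Genes lower in vnd7 ABA ranged from 11 to 25 and in vnd7 mock from 1 to 7, and suberin genes lower in vnd123 mock from 0 to 1. The cause was not tested.

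Over all tested genes, same-numbered libraries deviated together little (r from -0.10 to 0.20, above 0.1 in 5 of 45 pairs), and the main fit used no pairing. A correlation over all genes cannot show whether single genes share a replicate effect. Library 3 was the highest of its group for both MYB41 and MYB74 in vnd123 ABA, vnd123 mock, vnd7 ABA and vnd7 mock. It was the lowest for both in Col-0 ABA, and in Col-0 mock the highest for MYB41 and the lowest for MYB74. The fit with a replicate block called 296 genes lower in vnd123 ABA, 28 lower in vnd7 ABA and 7 lower in vnd7 mock, and changed no call of a member.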
